A study of Mus musculus with 6 samples.

Results

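Transcripts of 34 genes for dermal collagens, their partner matrix proteins and the surface proteins of fibroblasts were read out in macrophages sorted from mouse ear skin. The genes were taken by name from a list, through array probe sets that carry a single gene symbol, and the brightest probe set stood for a gene with several. Of the 34 genes 33 were found in this way among 22180 genes measured. Fbn1, the gene of the microfibril protein fibrillin-1, was not analysed here. The 33 genes all passed the filter on dim signal, a mean log2 signal of at least 4.335, which 15529 genes passed.

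The cells came from C57Bl/6 mice of the genotype Cx3cr1+/gfp, aged 2 weeks, in which green fluorescent protein replaces a single copy of Cx3cr1, the fractalkine receptor gene. All samples share this genotype, and no cells with both copies of Cx3cr1 intact were compared. Digested skin of 4 mice was pooled for a sample, and fluorescence sorting split the macrophages by CX3CR1 into low, int (intermediate) and high cells, the last titled bright in the labels. For every subset there were 2 samples, from 2 independent litters, so that p-values rest on the spread between pools. Array medians lay between 4.84 and 4.94 on the log2 scale, and the number of arrays limits the precision of every value. Macrophage genes were bright in every sample: Adgre1, which encodes F4/80, was at 10.63 to 10.95 and Csf1r, the receptor of the macrophage growth factor, at 11.15 to 11.58.

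Type I collagen, built from the chains of Col1a1 and Col1a2, forms the main fibrils of the dermis together with type III collagen. Fibroblasts make these chains, trim their ends, cross-link them and coat the fibrils with small proteoglycans, while elastin and microfibrils give the skin its recoil. Macrophages are known for taking up and breaking down such matrix. In arrays of pooled cells, fewer cells that hold a transcript and less of it per cell cannot be told apart.

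Most of the genes were highest in CX3CR1low and lowest in CX3CR1high samples. Between CX3CR1high and CX3CR1low samples 29 of 33 were lower (48.5% of all tested genes) and 4 higher, with a median log2 difference of -0.79, against 0.005 over all genes tested. The means fell in the order CX3CR1low, CX3CR1int, CX3CR1high for 26 of the 33 genes, an order that 17.6% of all tested genes had. In limma's moderated test, adjusted over all genes tested, no gene of the list passed the threshold of 0.05, and 0.399% of all genes did (62 genes). At an unadjusted p below 0.05 there were 19 of 33, of which 18 were lower, against 9.65% of all genes. At least 1 log2 unit lower were 13 of the 33, against 0.799% of all genes.

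The replicate number was taken to pair samples across subsets, which was inferred from these data and is not stated in the labels. With a term for it in the model (a replicate block) 8 genes fell in CX3CR1high against CX3CR1low samples. They were Col1a1, Col1a2, Col3a1, Col6a1, Dcn, Aspn, Bgn and Pcolce, with folds between 2.02 and 3.40, while 0.992% of all genes were called in that fit and 0.502% were called lower. None of the 8 was called when any of the 6 samples was left out of the blocked fit, which leaves a single residual degree of freedom. The smallest adjusted p of a gene on the list in these limma fits lay between 0.147 and 0.297, and 16 to 22 of the 33 genes had an unadjusted p below 0.05, against 7.10% to 10.2% of all genes. Without the dim filter 4 of the 8 were called with the block: Col3a1, Col6a1, Aspn and Bgn.

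**Figure D1:**
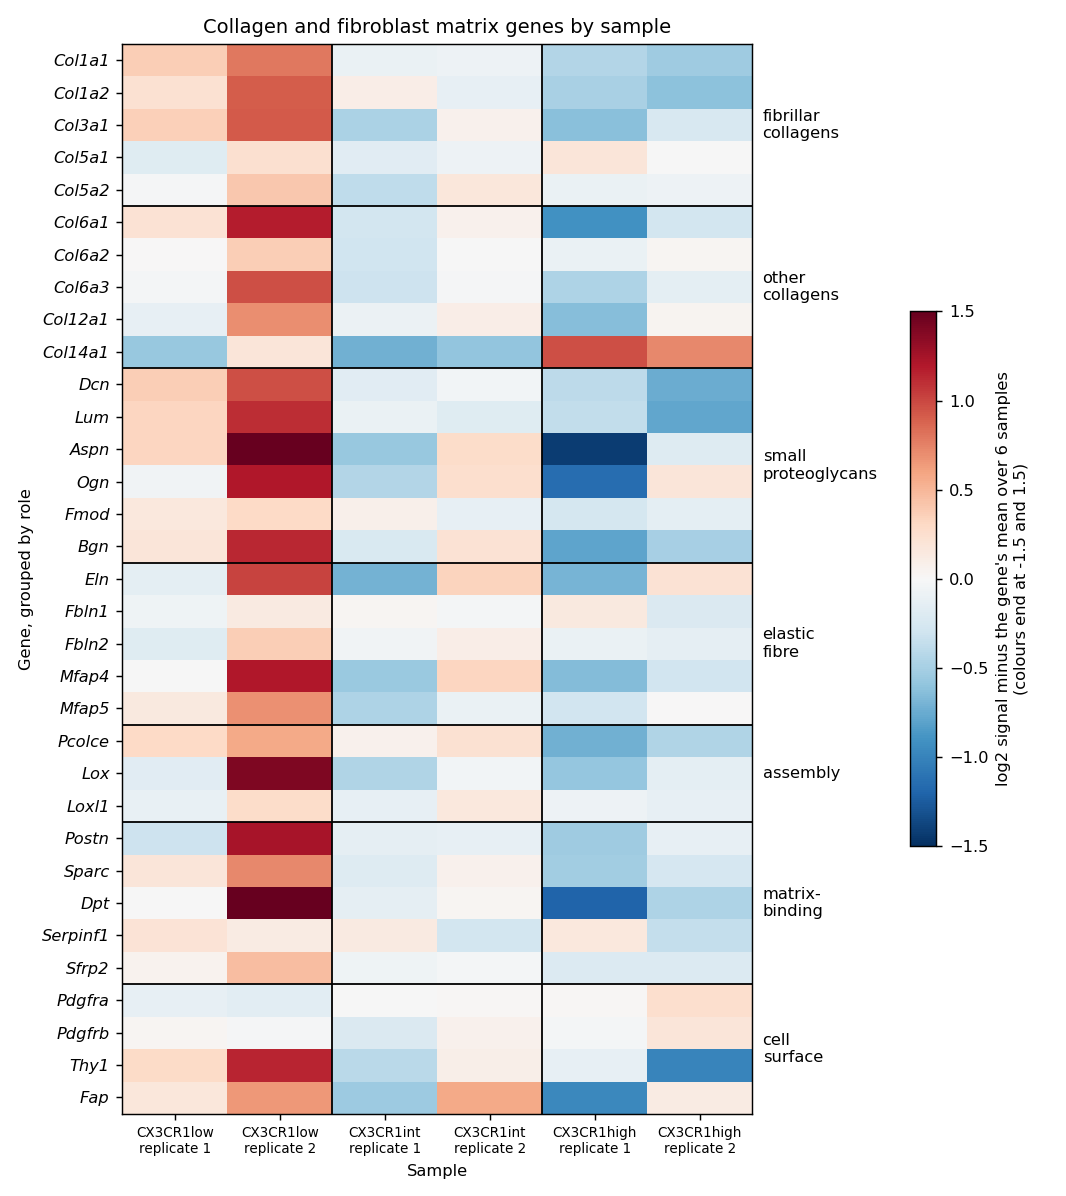
Log2 signal of the 33 genes (rows, grouped by role) in the 6 samples (columns), each gene shown as the difference from its own mean over the samples, with red above and blue below that mean. CX3CR1low replicate 2 is the highest sample for 28 of the 33 genes, and Col14a1 and Pdgfra run against the common pattern.

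The fibrillar collagens were led by the type I and III chains. Col1a1 (probe set 17255260) was at 7.86 and 8.28 for CX3CR1low, 7.39 and 7.42 for CX3CR1int, and 7.05 and 6.96 for CX3CR1high samples. The subsets did not overlap, and the CX3CR1high mean was 2.09-fold lower (log2 difference -1.07 ± 0.19, SE, limma adjusted p = 0.0716, and 0.0453 with the replicate block). Col1a2 was at 10.88 and 11.56, then 10.75 and 10.53, then 10.17 and 10.04 in the same order of samples, again without overlap between subsets. Its difference was -1.12 ± 0.21 (SE, limma adjusted p = 0.0829, and 0.0492 with the block). Col3a1, the chain of type III collagen, was at 7.97 and 8.54 for CX3CR1low, 7.14 and 7.68 for CX3CR1int, and 6.99 and 7.37 for CX3CR1high samples. Both CX3CR1low samples were above the other 4, whereas CX3CR1int and CX3CR1high samples overlapped (difference of CX3CR1high from CX3CR1low -1.08 ± 0.26, SE, limma adjusted p = 0.192, and 0.0298 with the block).

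The minor chains of type V collagen, which set fibril diameter, did not share this size of difference. Col5a1 was at 5.56 and 5.99 for CX3CR1low, 5.58 and 5.67 for CX3CR1int, and 5.93 and 5.74 for CX3CR1high samples, so that the ends of the range overlapped (0.06 ± 0.20, SE, limma adjusted p = 0.959). Its dimmer probe set differed by -0.20, so that the sign for Col5a1 rests on the choice of probe set. Col5a2 differed by -0.28 ± 0.23 (SE, limma adjusted p = 0.779).

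Type VI collagen forms beaded filaments around cells from 3 chains, and on the brightest probe sets their differences were of unlike size. Col6a1 was at 7.23 and 8.19 for CX3CR1low, 6.73 and 7.08 for CX3CR1int, and 6.10 and 6.73 for CX3CR1high samples, a difference of -1.30 ± 0.33 (SE, limma adjusted p = 0.205, and 0.0262 with the block). Both CX3CR1low samples were above the other 4. Col6a3 differed by -0.77 and Col6a2 by -0.23, and neither passed in either fit. The dimmer probe set of Col6a1 differed by -0.20, so that its contrast with Col6a2 rests on the choice of probe set. Col12a1, a collagen that sits on the surface of fibrils, differed by -0.59 with overlapping samples.

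Col14a1, another fibril-associated collagen, went the other way. Its signal was 5.0 and 5.75 for CX3CR1low, 4.85 and 4.98 for CX3CR1int, and 6.53 and 6.29 for CX3CR1high samples. Both CX3CR1high samples were thus above all others, by 1.04 ± 0.25 (SE) against CX3CR1low (limma adjusted p = 0.181, and 0.112 with the block). Against CX3CR1int the difference of Col14a1 was 1.5 ± 0.25 (SE, limma adjusted p = 0.0870, and 0.0537 with the block). That difference passed when only the samples of those subsets were fitted (adjusted p = 0.0465) or when a CX3CR1low sample was left out (0.0468 and 0.0467), since the spread is shared across subsets. Over the 6 samples Col14a1 had a Pearson correlation of -0.24 with the mean of the other 32 genes, as a description of 6 arrays.

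The small leucine-rich proteoglycans, which bind collagen fibrils and control their assembly, were lower in CX3CR1high samples as a whole group. All 6 were lower, 5 of them without overlap, with a median of -1.27, and each was lower within replicates 1 and within replicates 2. Samples did not overlap with CX3CR1high the lower for 19 of the 33 genes in all, against 18.4% of all tested genes, and with CX3CR1high the higher for Col14a1 and Pdgfra (19.8% of all tested genes). Decorin (Dcn) was at 8.77 and 9.37 for CX3CR1low, 8.23 and 8.36 for CX3CR1int, and 8.01 and 7.65 for CX3CR1high samples. It differed 2.36-fold without overlap between subsets (-1.24 ± 0.23, SE, limma adjusted p = 0.0782, and 0.0484 with the block).

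Asporin (Aspn), which competes with decorin for collagen, showed the largest difference of the list, 3.40-fold (-1.77 ± 0.50, SE). It was at 7.02 and 8.29 for CX3CR1low, 6.13 and 6.97 for CX3CR1int, and 5.27 and 6.51 for CX3CR1high samples. Replicate 2 exceeded replicate 1 in each subset, by 0.84 to 1.27, and within replicate numbers the difference was -1.75 and -1.78. The limma adjusted p was accordingly 0.259 without the block and 0.00698 with it. Biglycan (Bgn), a close relative of decorin, was at 8.90 and 9.86, then 8.49 and 8.94, then 7.93 and 8.22 in CX3CR1low, CX3CR1int and CX3CR1high samples. Its CX3CR1high samples were both below the other 4 (-1.31 ± 0.30, SE, limma adjusted p = 0.172, and 0.0239 with the block).

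Lumican (Lum) followed decorin, next to which it lies in RefSeq's gene order for GRCm38.p6. It was at 6.78 and 7.56 for CX3CR1low, 6.35 and 6.27 for CX3CR1int, and 6.09 and 5.67 for CX3CR1high samples, with no overlap (-1.29 ± 0.27, SE, limma adjusted p = 0.113, and 0.0818 with the block). Osteoglycin (Ogn) differed by -1.05 with overlapping samples, and its SDs of 0.49 to 0.93 within subsets were among the widest of the list. Fibromodulin (Fmod) differed least in this group, by -0.44, on either of its probe sets by -0.44 and -0.49.

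The elastic fibre genes were all lower in CX3CR1high samples and none was called. Elastin (Eln) was at 6.08 and 7.23 for CX3CR1low, 5.51 and 6.55 for CX3CR1int, and 5.52 and 6.44 for CX3CR1high samples. The subsets overlapped throughout, and replicate 2 was higher in every subset by 0.92 to 1.15, against a difference of -0.68 ± 0.46 (SE, limma adjusted p = 0.711, and 0.161 with the block) between the ends of the range. Mfap4, a microfibril-associated protein, differed by -1.07 and Mfap5 by -0.56, both without overlap and without a call in either fit. The fibulin genes of this list, whose products bridge elastic fibres and basement membranes, hardly differed: Fbln2 by -0.22 and Fbln1 by -0.07. Fbln1 was at 5.68 and 5.88 for CX3CR1low, 5.78 and 5.72 for CX3CR1int, and 5.89 and 5.53 for CX3CR1high samples, a span of 0.36 over all samples.

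Of the genes that act on collagen as it assembles, Pcolce, which enhances the removal of the C-terminal propeptide, was the steadiest. It was at 7.95 and 8.23 for CX3CR1low, 7.72 and 7.89 for CX3CR1int, and 6.94 and 7.21 for CX3CR1high samples. The subsets did not overlap, and the difference was -1.01 within replicates 1 and -1.02 within replicates 2 (-1.02 ± 0.19, SE, limma adjusted p = 0.0829, and 0.0337 with the block). The step lay between CX3CR1int and CX3CR1high samples for Pcolce, -0.73 against -0.29 between CX3CR1int and CX3CR1low, although neither step passed the test. The cross-linking enzyme genes Lox and Loxl1 differed by -0.98 and -0.18. Lox was at 7.17 in CX3CR1low sample 2 and at 5.61 in sample 1, and its samples overlapped.

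Matricellular and matrix-binding genes were all lower in CX3CR1high samples and none was called. Sparc, a collagen-binding glycoprotein that macrophages can also make, was at 9.39 and 9.93 for CX3CR1low, 9.01 and 9.27 for CX3CR1int, and 8.68 and 8.95 for CX3CR1high samples. Its CX3CR1high samples were both below all others (-0.85 ± 0.21, SE, limma adjusted p = 0.203, and 0.0505 with the block). With the mean of probe sets for each gene Sparc was called with the block, although it has a single probe set and its own values did not change. Dermatopontin (Dpt), which binds decorin, was at 6.78 and 8.57, then 6.65 and 6.82, then 5.58 and 6.32 in CX3CR1low, CX3CR1int and CX3CR1high samples. The second CX3CR1low sample stood above the other 5, and the 3.31-fold difference of Dpt (-1.73 ± 0.49, SE, limma adjusted p = 0.264, and 0.0541 with the block) passed the test when CX3CR1low sample 1 was left out (adjusted p = 0.0474).

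Periostin (Postn), a matrix protein of growing and healing dermis, stood out in a single sample. It was at 7.75 and 9.29 for CX3CR1low, 7.92 and 7.93 for CX3CR1int, and 7.53 and 7.93 for CX3CR1high samples. The other 5 samples lay between 7.53 and 7.93, and the difference of -0.79 ± 0.41 (SE, limma adjusted p = 0.611) was -0.22 within replicates 1 and -1.36 within replicates 2. Sfrp2, a Wnt-binding protein of dermal fibroblasts, differed by -0.46 without overlap, and Serpinf1, the anti-angiogenic factor PEDF, by -0.27 with overlap.

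The surface proteins by which fibroblasts are usually recognised did not move together. Pdgfra, the receptor used most often to mark fibroblasts, was at 4.47 and 4.44 for CX3CR1low, 4.59 and 4.61 for CX3CR1int, and 4.62 and 4.85 for CX3CR1high samples, close to the dim level. Pdgfra was higher in CX3CR1high samples, without overlap between CX3CR1low and CX3CR1high samples (0.28 ± 0.17, SE, limma adjusted p = 0.663). Pdgfrb, a receptor shared by fibroblasts and pericytes, was at 5.10 and 5.05 for CX3CR1low, 4.85 and 5.13 for CX3CR1int, and 5.04 and 5.25 for CX3CR1high samples, which overlapped (0.07 ± 0.18, SE, limma adjusted p = 0.944).

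Thy1, a glycoprotein of fibroblasts that T cells also carry, had a Pearson correlation of 0.82 with the mean of the other genes over the 6 samples. It was at 7.24 and 8.09 for CX3CR1low, 6.55 and 7.04 for CX3CR1int, and 6.83 and 5.96 for CX3CR1high samples. The CX3CR1high samples were both below the CX3CR1low samples (-1.27 ± 0.35, SE, limma adjusted p = 0.255), with -0.41 within replicates 1 and -2.13 within replicates 2. Fap, a surface protease of activated fibroblasts, differed by -0.83, and replicate 2 was the higher in each subset by 0.48 to 1.11. Of these surface genes Thy1 and Fap were lower in CX3CR1high than in CX3CR1low samples without overlap, and the receptor genes Pdgfra and Pdgfrb were not lower. Pdgfra was at 4.44 to 4.85 and Pdgfrb at 4.85 to 5.25 in all samples, beside a dim level of 4.335.

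**Figure D2:**
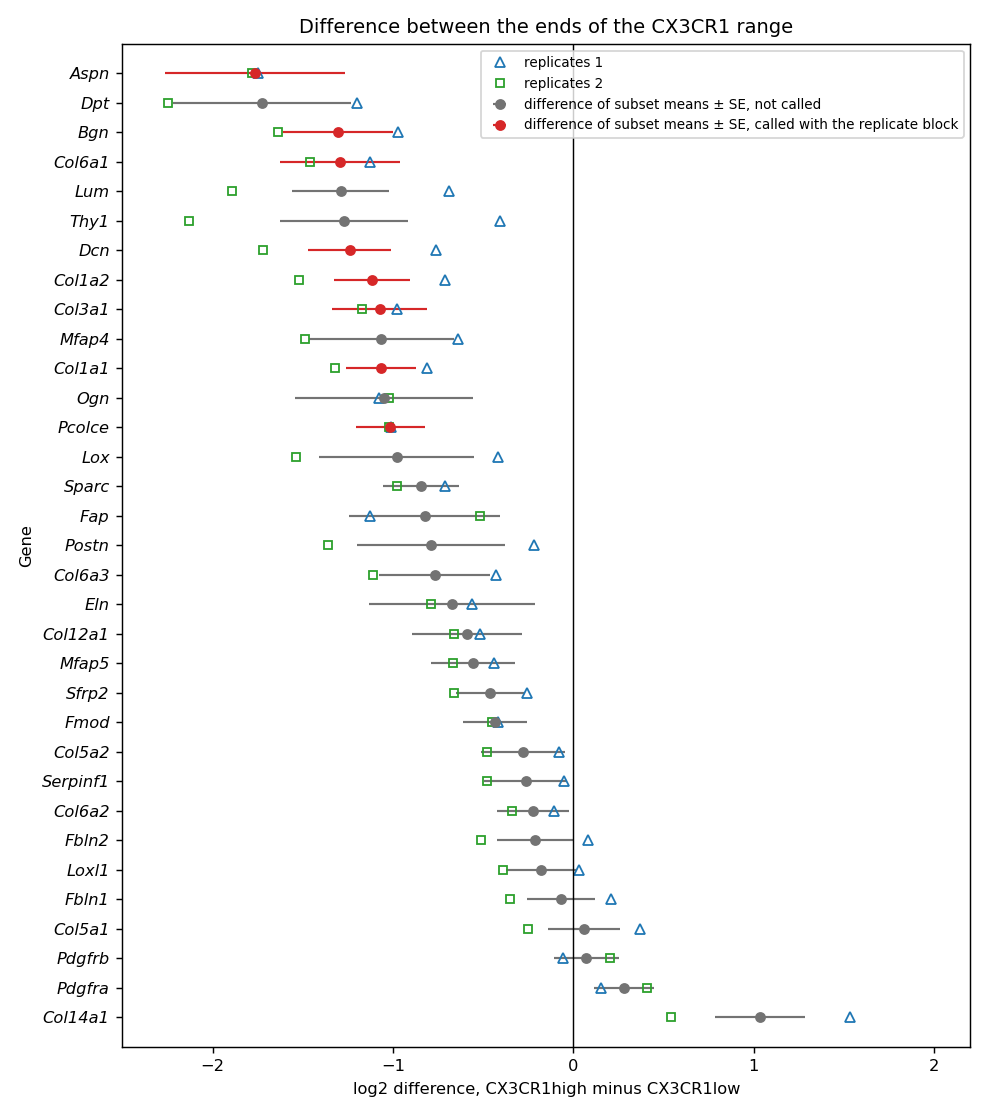
Log2 difference between CX3CR1high and CX3CR1low samples for the 33 genes: filled points give the difference of subset means with its SE (n = 2 per subset), open triangles the difference within replicates 1 and open squares that within replicates 2. Red points mark the 8 genes called in the fit with the replicate block, which lie between -1.77 and -1.02.

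The stretch of 250 bases before the RefSeq start site is shown for the 6 of the 8 genes that fell with the block whose promoters were at hand, which leaves out Col1a1 and Dcn. RefSeq promoters were at hand for 20 of the 34 genes, in 23 entries. The stretches below are from GRCm38.p6 and read 5′ to 3′ on the gene's strand, in lower case, and capitals mark the matches of 3 motifs on either strand. The motif CCAAT is known as the binding site of NF-Y, the motif TATAAA as a core promoter element and the motif GGGCGG as the binding site of Sp1.
Col1a2: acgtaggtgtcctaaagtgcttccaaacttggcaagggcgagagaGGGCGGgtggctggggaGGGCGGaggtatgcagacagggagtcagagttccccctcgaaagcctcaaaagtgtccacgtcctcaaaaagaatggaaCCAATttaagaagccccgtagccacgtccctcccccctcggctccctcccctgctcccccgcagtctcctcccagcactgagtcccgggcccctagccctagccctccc
Col3a1: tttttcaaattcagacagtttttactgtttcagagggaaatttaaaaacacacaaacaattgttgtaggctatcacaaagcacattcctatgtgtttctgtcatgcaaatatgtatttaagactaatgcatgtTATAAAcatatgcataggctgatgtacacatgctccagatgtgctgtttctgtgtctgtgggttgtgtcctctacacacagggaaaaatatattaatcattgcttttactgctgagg
Aspn: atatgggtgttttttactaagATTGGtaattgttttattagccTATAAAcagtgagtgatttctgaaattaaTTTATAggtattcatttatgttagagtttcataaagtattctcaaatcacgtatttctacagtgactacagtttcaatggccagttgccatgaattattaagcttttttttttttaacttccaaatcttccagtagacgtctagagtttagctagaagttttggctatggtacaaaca
Bgn: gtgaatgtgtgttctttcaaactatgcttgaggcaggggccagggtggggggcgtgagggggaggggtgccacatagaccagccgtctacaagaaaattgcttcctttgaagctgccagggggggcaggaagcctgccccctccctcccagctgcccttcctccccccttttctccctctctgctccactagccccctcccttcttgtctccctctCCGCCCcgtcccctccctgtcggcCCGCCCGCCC
Pcolce: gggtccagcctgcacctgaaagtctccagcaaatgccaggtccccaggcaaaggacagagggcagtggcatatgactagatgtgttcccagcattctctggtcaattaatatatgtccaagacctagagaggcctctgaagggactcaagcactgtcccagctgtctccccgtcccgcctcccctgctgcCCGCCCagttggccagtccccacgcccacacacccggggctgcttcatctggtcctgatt
Col6a1: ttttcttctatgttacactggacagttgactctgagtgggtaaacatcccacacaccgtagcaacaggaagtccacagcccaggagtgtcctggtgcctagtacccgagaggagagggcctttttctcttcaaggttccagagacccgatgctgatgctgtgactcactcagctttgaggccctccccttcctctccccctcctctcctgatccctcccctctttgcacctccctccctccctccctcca

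These stretches lie at chr6:4505368-4505617 (Col1a2), chr1:45311288-45311537 (Col3a1), chr13:49544193-49544442 (Aspn), chrX:73483351-73483600 (Bgn), chr5:137611405-137611654 (Pcolce) and chr10:76726045-76726294 (Col6a1), on the plus strand except those of Pcolce and Col6a1. The genes share no single box: Col1a2 holds CCAAT and GGGCGG, Col3a1 TATAAA, Aspn CCAAT and TATAAA, Bgn GGGCGG, with the last pair of its matches overlapping, and Pcolce GGGCGG, while none of the 3 is in the Col6a1 window. Among the 23 entries of the list CCAAT was in 3 (13.0%, against 33.8% of all 32851 RefSeq promoters), TATAAA in 4 (17.4% against 12.4%) and GGGCGG in 9 (39.1% against 32.7%). A match of letters is a description of the window and does not show a bound factor.

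Both probe sets of Col1a2 were lower in CX3CR1high samples, by a like amount. On the brighter probe set (17548532) the CX3CR1low mean was 11.22 ± 0.48 (SD, n = 2) and the CX3CR1high mean 10.11 ± 0.09 (SD, n = 2). On the dimmer probe set (17455801) Col1a2 was at 7.87 and 8.10 for CX3CR1low, 7.09 and 7.28 for CX3CR1int, and 7.19 and 6.67 for CX3CR1high samples. The differences between CX3CR1high and CX3CR1low samples were -1.12 and -1.06. Neither passed when every probe set was tested on its own (limma adjusted p = 0.161 and 0.193, and 0.1323 and 0.1785 with the block). The brighter set placed CX3CR1int samples midway (-0.58 from CX3CR1low), whereas the dimmer placed them nearer to CX3CR1high (-0.80), where CX3CR1int and CX3CR1high samples overlapped.

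Of the other 5 genes with a second probe set, Col6a1 showed a clear disagreement. Its dimmer probe set (17242177) was at 6.59 and 6.92 for CX3CR1low, 6.61 and 6.56 for CX3CR1int, and 6.50 and 6.62 for CX3CR1high samples. The difference of Col6a1 was -0.20 there, against -1.30 on the brighter set, and with the mean of both sets Col6a1 was not called with the block. Bgn was lower on both sets (-1.31 and -0.98) and was likewise not called with the block on the mean of both. With every probe set tested on its own and the block, the brighter sets of Bgn and Col6a1 did not pass (limma adjusted p = 0.0739 for each). Sfrp2 (-0.46 and -0.53) and Fmod agreed in direction between their sets.

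**Figure D3:**
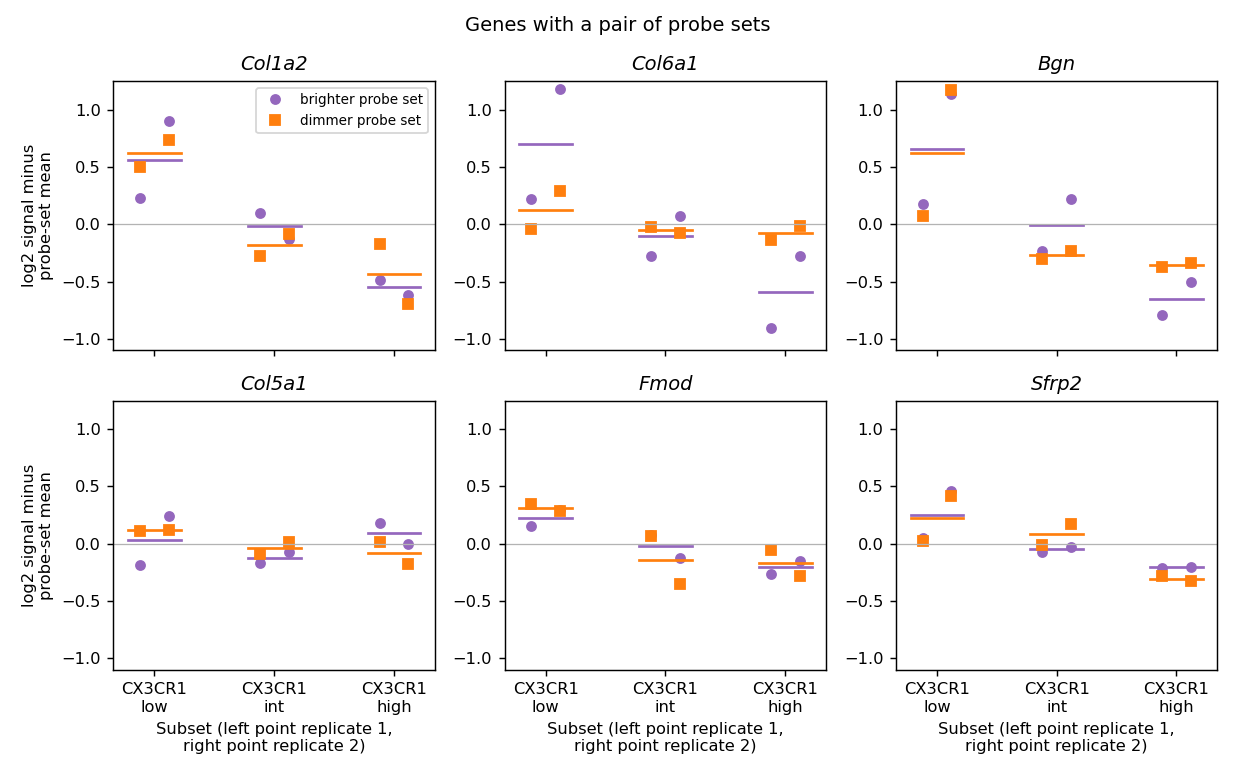
Log2 signal of the 6 genes with a pair of probe sets, as the difference from the mean of that probe set over 6 samples; circles are the brighter and squares the dimmer probe set, each point is a sample, and lines are subset means. The sets of Col1a2 run together, while the dimmer set of Col6a1 lies between 6.50 and 6.92 before centring.

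Against CX3CR1low samples 32 of 33 genes were lower in CX3CR1int samples (47.8% of all tested genes), with a median of -0.58, while all tested genes had a median of 0.01. None was called by limma in either fit, and 0.00644% of all genes were called without the block (1 gene) and none with it. At an unadjusted p below 0.05 there were 9 of the list without the block and 17 with it, all lower, against 4.89% and 6.08% of all genes. The largest differences were those of Aspn (-1.11), Dpt (-0.94), Thy1 (-0.87), Lox (-0.87) and Lum (-0.86). Aspn alone was at least 1 log2 unit lower, which 0.373% of all genes were.

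Between CX3CR1high and CX3CR1int samples the differences were smaller. Of the 33 genes 26 were lower in CX3CR1high (49.5% of all tested genes), with a median of -0.20 against 0 over all genes, and leaving out a sample moved that median to between -0.39 and -0.07 (to -0.0075 with the block and without CX3CR1high sample 2). None of the 33 was called in either fit, where 0.142% and 0.303% of all genes were. Without the block 0.0644% of all genes were called lower and 0.0773% higher. Within both replicate numbers 20 of the 33 were lower, against 27.3% of all genes. At an unadjusted p below 0.05 limma gave 3 genes without the block, Col14a1 among them as the higher, and 7 with it, against 7.89% and 9.59% of all genes. Samples did not overlap, with CX3CR1high the lower, for 11 genes, against 18.5% of all genes, and Pcolce (-0.73) and Bgn (-0.64) were among them. None was at least 1 log2 unit lower, which 0.419% of all genes were. Since every subset serves 2 of the comparisons, these are not independent.

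The second CX3CR1low sample carried much of the pattern. It was the highest of the 6 samples for 28 of the 33 genes, which was so for 14.7% of all tested genes. The mean log2 level of the list was 6.64 and 7.33 for CX3CR1low, 6.35 and 6.63 for CX3CR1int, and 6.18 and 6.40 for CX3CR1high samples. The first CX3CR1low sample was thus level with the second CX3CR1int sample. Without the second CX3CR1low sample the median difference between CX3CR1high and CX3CR1low was -0.31, and that between CX3CR1int and CX3CR1low -0.14, with 10 and 0 genes lower at an unadjusted p below 0.05 in limma's test, where 8.46% and 4.42% of all genes passed in either direction.

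Replicate 2 was the higher for most of these genes in each subset, 30 of 33 in CX3CR1low, 28 in CX3CR1int and 22 in CX3CR1high samples. The median excess was 0.57, 0.26 and 0.23, whereas over all tested genes it was -0.04, -0.02 and -0.01. Replicates 1 and 2 also differed in sex-linked transcripts: Xist, made from the inactive X chromosome, was at 7.39 to 7.97 in replicates 1 and at 10.99 to 11.39 in replicates 2, and the Y-linked Eif2s3y at 7.76 to 8.27 and at 2.99 to 3.72. The part of sex in the excess of replicate 2 was not tested. In 19 genes replicate 2 was higher in all 3 subsets, among them Aspn, Ogn, Eln, Fap, Mfap4 and Col3a1. In 7 it was higher in CX3CR1low and CX3CR1int but lower in CX3CR1high samples, among them Col1a1, Dcn and Thy1, for which the CX3CR1high difference was the larger within replicates 2.

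Within replicate numbers 26 of 33 genes were lower in CX3CR1high than in CX3CR1low samples in both, which 26.8% of all genes were. The median of the list was -0.44 within replicates 1 and -0.98 within replicates 2. Over the 6 samples 14 of the 33 genes had a Pearson correlation of at least 0.9 with the mean of the other genes, the highest for Col6a3 (0.99), Sparc (0.98) and Col6a1 (0.98). Fbln1 (0.24), Serpinf1 (0.10), Pdgfrb (0.07), Col14a1 and Pdgfra (-0.62) stood apart. These correlations describe genes read on the same 6 arrays and are given without a test.

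The other genes of matrix building, from lists that do not contain the 33, moved less. Of 22 tested enzymes and chaperones of collagen processing none was called in either fit, 14 were lower in CX3CR1high than in CX3CR1low samples, and the median was -0.11. Serpinh1, the collagen chaperone HSP47, differed by -0.40 ± 0.21 (SE, limma adjusted p = 0.611), and the prolyl hydroxylase gene P3h2 by -0.78. Of 34 other fibril, microfibril and elastic fibre genes 25 were lower with a median of -0.28, and none was called without the block. With it Ecm1 (-1.02, adjusted p = 0.0298) and Ecm2 (-1.44, adjusted p = 0.0181), both matrix proteins, fell. Fbln5, a fibulin needed for elastic fibres, differed by -1.23 without a call.

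Most genes of fibroblast identity that do not encode matrix were also lower in CX3CR1high than in CX3CR1low samples, with a smaller median difference than the matrix genes. Of 26 tested, 18 were lower (48.5% of all tested genes) and 8 higher, the median was -0.16, and none was called in either fit. Samples did not overlap with CX3CR1high the lower for 9 (18.4% of all tested genes) and the higher for 4 (19.8%). The largest differences were those of Cd34 (-0.53), a surface glycoprotein, Islr (0.48), a secreted leucine-rich protein, and Crabp1 (-0.38), a retinoic acid carrier. Twist2, Meox2, Dpp4, Ly6c1 and Sfrp4 lay below the dim level.

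Genes that take up and break down collagen went both ways. Of 20 tested, the collagenase gene Mmp13 (1.89 ± 0.23, SE, limma adjusted p = 0.0180) and the membrane protease gene Mmp14 (1.34 ± 0.19, SE, adjusted p = 0.0370) rose in CX3CR1high against CX3CR1low samples. The cathepsin gene Ctsk was at 8.12 and 7.75 for CX3CR1low, 7.23 and 7.16 for CX3CR1int, and 5.75 and 6.71 for CX3CR1high samples (-1.71 ± 0.30, SE, adjusted p = 0.0634), and it fell with the block (adjusted p = 0.0367). Of 19 TGF-beta and PDGF pathway genes, which signal to fibroblasts, none was called in either fit, and Pdgfb (1.99-fold higher), Tgfbr1 (1.97-fold higher) and Pdgfc (1.57-fold lower) differed most. The median of that list was -0.14.

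Among the markers of other skin cells, those of keratinocytes moved alongside the collagens, and their part in the result was not tested. Of 16 tested keratinocyte genes 15 were lower in CX3CR1high than in CX3CR1low samples, with a median of -0.66. The keratin gene Krt10 (-1.46, limma adjusted p = 0.0439, and 0.0146 with the block) fell in both fits, and Krtdap and Krt17 fell with the block only. The mean log2 level of the keratinocyte list was 6.88 and 7.39 for CX3CR1low, 6.38 and 6.65 for CX3CR1int, and 6.36 and 6.49 for CX3CR1high samples. Its highest sample was thus the same as for the matrix genes. Krt14, of the basal layer, was at 7.82 or above in all samples and differed by -0.585 without overlap (Krt15 by -0.73).

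The mean level of mast cell genes fell in the same order of subsets as that of the matrix genes. Of 7 tested all were lower, and the proteases Cpa3, Mcpt4 and Cma1 fell without the block (-3.37, -2.26 and -1.87), Cpa3 to below the dim level in CX3CR1high samples. The mean level of the list was 6.22 and 5.99 for CX3CR1low, 5.61 and 5.66 for CX3CR1int, and 4.77 and 4.73 for CX3CR1high samples, so that CX3CR1low sample 1 was the higher. The mast cell markers Ms4a2, Fcer1a and Tpsab1 were dim.

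Of 12 endothelial genes 9 were tested, and Kdr, Tek and Emcn were dim. All 9 were lower in CX3CR1high than in CX3CR1low samples, with a median of -0.16 and no call in either fit. Cdh5, the cadherin of endothelial junctions, was at 6.95 and 6.74 for CX3CR1low, 5.91 and 6.62 for CX3CR1int, and 5.94 and 5.21 for CX3CR1high samples. Its difference of -1.27 ± 0.30 (SE, limma adjusted p = 0.177, and 0.119 with the block) was without overlap and as large as those of several collagens, with -1.01 and -1.53 within replicate numbers. Flt1, a VEGF receptor, differed by -0.29 and Pecam1 by -0.05.

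The pericyte and smooth muscle genes had a median of -0.16 over 11 tested, with no call in either fit and differences in both directions. Rgs5, a pericyte marker, differed by -0.94 with overlap and was highest, at 7.68, in CX3CR1low sample 2, whereas Cspg4, the proteoglycan NG2, differed by 0.75 without overlap. The smooth muscle genes Acta2 and Tagln differed by -0.15 and -0.02. Over 15 cartilage genes the median was -0.06, and Chad, a cartilage leucine-rich protein, fell with the block (-1.14, limma adjusted p = 0.0303). Of the others there, Hapln1 differed by -0.73, Matn4 by 0.62 (without overlap), Acan by -0.50, Col2a1 by -0.19 and Comp by 0.04.

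The median difference was -0.10 over 5 Schwann cell genes, 0.11 over 6 adipocyte genes and -0.11 over 9 skeletal muscle genes, with no call in either fit. The largest single differences there were those of S100b (-0.40), Plin4 (0.31) and Mylpf (-0.66). Over 14 macrophage genes the median was -0.10, again with no call, and the largest differences were those of Aif1 (0.46) and Cd14 (0.45), both without overlap and higher in CX3CR1high samples. The mean level of macrophage genes stayed between 10.32 and 10.56 in all samples. The part of any of these cells in the collagen result was not tested.

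**Figure D4:**
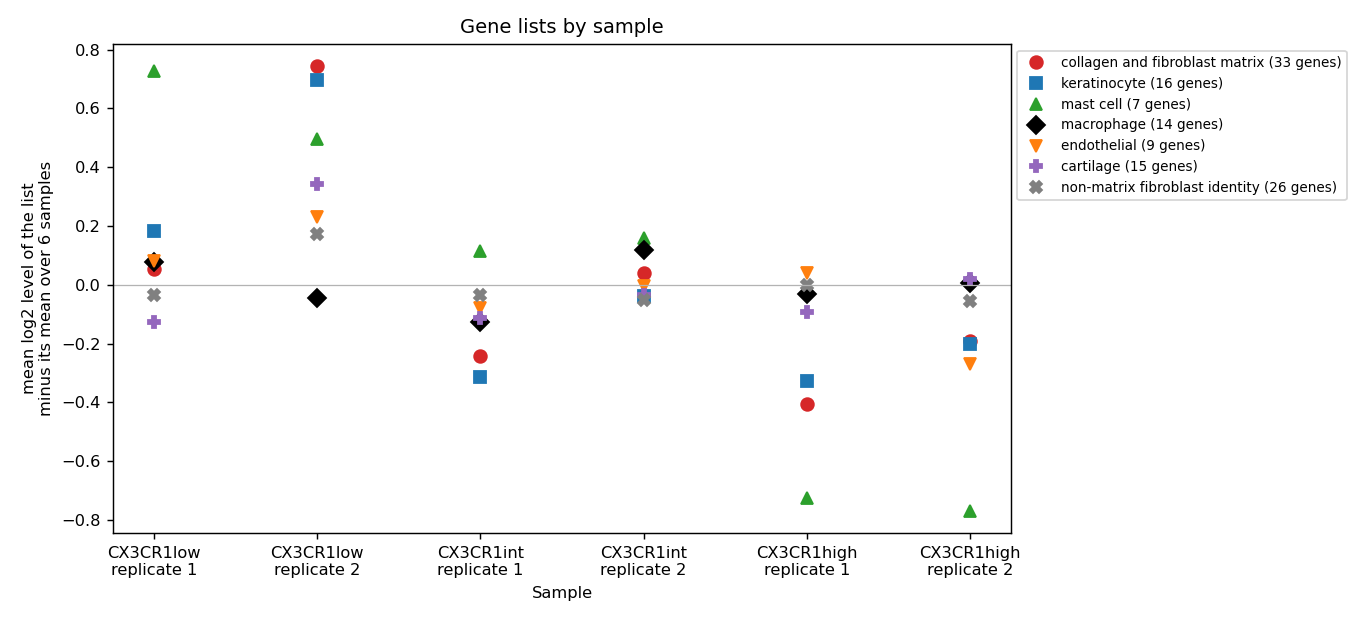
Mean log2 level of gene lists in each of the 6 samples, as the difference from the list's own mean over the samples. The collagen and fibroblast matrix genes and the keratinocyte genes are highest in CX3CR1low replicate 2 (7.33 and 7.39 before centring), while mast cell genes are high in both CX3CR1low samples and macrophage genes lie between 10.32 and 10.56.

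Outside the list, genes were ranked by how closely their 6 values followed the mean of the matrix genes, as a description. Among 1231 genes spanning at least 1 log2 unit, the 8 of highest Pearson correlation were Peg3, Sbsn, Krtdap, Krt77, Pof1b, Gjb2, Oas2 and Grhl3, at 0.97 to 0.99 over 6 samples. Of these 8 Sbsn and Krtdap are on the keratinocyte list above. Krt77 encodes a keratin, Gjb2 a connexin, and Grhl3 a regulator of the skin barrier. Peg3, an imprinted gene, was at 5.43 and 6.29 for CX3CR1low, 5.19 and 5.47 for CX3CR1int, and 5.03 and 5.30 for CX3CR1high samples. Oas2, an interferon-induced gene, differed by -0.87 between the ends of the range. Without the block none of the 8 was called, and with it Krtdap alone was.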

How the data were processed

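The deposited values are log2 signals per probe set of an Affymetrix array, for which the submitters' processing notes name RMA and Affymetrix Expression Console 1.4. RNA was amplified before labelling, per the labels' protocols. The 6 columns of values were all used. Of 34390 probe sets, 23521 had a single gene symbol. A mean signal under the 30th percentile kept a gene out of the fit.

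Differences were tested with limma 3.58.1 in R 4.3.3: a mean per subset, an intensity trend in the variance prior, two-sided tests, with p adjusted over 15529 genes by Benjamini-Hochberg. A gene was called at an adjusted p below 0.05. There were 3 residual degrees of freedom, and 2 with the replicate number as a block. Deviations of samples with the same number from their subset means correlated at 0.146, 0.136 and 0.178 across genes for the 3 pairs of subsets, so the numbers were taken to pair the samples; the labels do not say whether a number marks a litter. The fit without the block was tested on simulated data that held no replicate effect, so that test does not bear on the blocked fit.

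The genes and lists were chosen with earlier results of these data known. Values by sample are given for 12 genes chosen by name, for those called in any fit, for the 3 largest and 3 smallest differences, and for those against the median's direction. From other lists, called genes and up to 3 of largest difference are named. The blocked fits without a sample, without the dim filter and with averaged probe sets were added after seeing the data.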

Additional observations from a re-analysis of the deposited data

How the results depend on the processing

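With the replicate block, 8 genes of the list were called between CX3CR1high and CX3CR1low samples instead of 0, and 7 with the mean of probe sets or 4 with no dim filter beside the block. It raised the count over all genes from 62 to 154 (155 with the mean of probe sets) there and from 22 to 47 (47 with the mean of probe sets) between CX3CR1high and CX3CR1int, and lowered it from 1 to 0 between CX3CR1int and CX3CR1low (1 with the mean of probe sets). With the block and no dim filter the first 2 counts were 87 and 25. These counts include the block with other settings, chosen after seeing the data.

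Over all genes, the CX3CR1high against CX3CR1low count was 39 with those 2 subsets only, 26 with no dim filter and 18 with every probe set on its own. The count between CX3CR1high and CX3CR1int was 14, 0 and 0 under the same settings, 4 with no intensity trend and 8 with quantile normalisation, and Col14a1 made 1 call of the list with those subsets only. Between CX3CR1int and CX3CR1low it was 0 under each of these and with arrays centred on their medians, as it was with the block and no dim filter.

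Leaving out a sample, with or without the block, gave 0 to 39 genes between CX3CR1high and CX3CR1low, 0 between CX3CR1int and CX3CR1low and 0 to 17 between CX3CR1high and CX3CR1int (with the block 0 to 8, 0 and 0). Of the list it gave 0 to 1 calls, Dpt without CX3CR1low sample 1 and Col14a1 without either CX3CR1low sample. The median of the list ranged from -1.155 to -0.31 against CX3CR1low for CX3CR1high and from -0.875 to -0.135 for CX3CR1int, smallest in size without CX3CR1low sample 2.

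Of the genes with values by sample, signs turned when a sample was left out, also for differences the size of the list's median or more. Between CX3CR1int and CX3CR1low that was Postn (-0.595). Between CX3CR1high and CX3CR1int these were Thy1 (-0.40), Col3a1 (-0.23), Postn (-0.195) and, with the block, Col5a1 (0.21). Between CX3CR1high and CX3CR1low, Col5a1 turned besides to -0.07 with the mean of probe sets, with or without the block. Without the block, CX3CR1high against CX3CR1low ranged from -0.155 to 0.275 for Col5a1, -0.25 to 0.11 for Fbln1 and -0.035 to 0.175 for Pdgfrb. CX3CR1int against CX3CR1low ranged from -0.365 to 0.065 for Col5a1, -0.13 to 0.07 for Fbln1, -1.365 to 0.175 for Postn and -0.225 to 0.055 for Pdgfrb. CX3CR1high against CX3CR1int ranged from -0.50 to 0.04 for Col3a1, -0.57 to 0.47 for Eln, -0.22 to 0.14 for Fbln1, -0.395 to 0.005 for Postn and -0.835 to 0.035 for Thy1.

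With the block and a sample left out, the turned values of CX3CR1high against CX3CR1low were -0.18 and -0.165 for Col5a1, 0.135 and 0.145 for Fbln1 and -0.0775 for Pdgfrb. Those of CX3CR1int against CX3CR1low were 0.09 for Col5a1, 0.175 for Fbln1, 0.0725 for Postn, and 0.0625 and 0.015 for Pdgfrb. Those of CX3CR1high against CX3CR1int were -0.015 for Col5a1, 0.0375 for Eln, 0.175 for Fbln1, 0.285 for Postn and 0.37 for Thy1. The causes were not tested. With 2 samples a subset, the number of arrays limits the precision.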
